A study of Mus musculus with 30 samples.

Results

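The comparison described here asked in which genes the response to intestinal manipulation (*IM*) after 3 h differed between enteric glia and the whole *muscularis externa* (*ME*), the muscle layer of the small bowel in which these glia lie. For every gene, the change from naïve to IM3h in *ME* libraries was subtracted from the same change in *RiboTag* libraries, and this difference is called the interaction. A positive interaction means that the change was more upward in *RiboTag*. Genes were joined by symbol, and 21134 genes were listed in both fractions. Of these, 14373 passed a filter on low counts in both fractions and were tested, and 327 were called at an adjusted p under 0.05 (edgeR quasi-likelihood test), which is 2.28% of the genes tested.

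*RiboTag* mice carry a Cre-dependent allele of the ribosomal protein gene *Rpl22* that adds an HA tag, so that messages on tagged ribosomes can be pulled down from a tissue lysate. For the *RiboTag* pulldown libraries (naïve and IM3h), the labels name the tamoxifen-inducible Tg(Sox10-icre/ERT2)388Wdr/J driver, crossed with Rpl22tm1.1Psam/J. For the *ME* libraries of total input RNA (naïve and IM3h), they name the Tg73.12Mvs/J(Gfap-cre) driver with the same *Rpl22* allele. If so, the interaction is a difference between lines as well as between fractions, and these cannot be told apart. The study's methods describe input as a portion of the lysate used for the pulldown and do not name the Gfap-cre line, so whether the *ME* libraries came from another line, or from the same mice as the pulldowns, is not settled here. *IM* denotes surgery in which the small bowel is exposed and gently rolled, a model of post-operative ileus, and IM3h tissue was taken 3 h later. The naïve mice had no operation, so the response covers everything done to the operated mice. The study used male mice of 10 to 12 weeks. The count tables held 3 naïve and 4 IM3h *RiboTag* libraries and 3 naïve and 3 IM3h *ME* libraries, 13 libraries in a series of 30 samples. The study gives its replicates as separate mice.

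Enteric glia surround the neurons of the myenteric plexus and support neuronal signalling, barrier function and repair. After injury they become reactive, with induction of immediate early genes, cytokines, trophic factors and intermediate filaments. Total *ME* RNA is dominated by smooth muscle and also contains the glia themselves, so a glial response is diluted in it but not absent.

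Libraries held 4831894 to 7899551 counts in *RiboTag* and 6603125 to 9937020 in *ME*. The 22 enteric glia markers summed to between 3446 and 5618 CPM (counts scaled for library size) in *RiboTag* and between 363 and 590 CPM in *ME*, so glial messages were enriched in the pulldown. The smooth muscle markers, which should be absent from glia, were still abundant in the pulldown and exceeded the glia markers there, so values are given as those of *RiboTag* libraries and not of glia alone. They summed to 24660 to 35046 CPM in naïve and 8341 to 18696 CPM in IM3h *RiboTag* libraries, against 33380 to 43762 CPM in *ME*. The fourth IM3h *RiboTag* library had counts in 15829 genes, the fewest of the 13, against 16965 to 19311 in the other *RiboTag* libraries. Without it the interaction was called in 312 genes above and 370 below 0, while leaving out any 1 *ME* library left 42 to 69 above and 46 to 67 below. Without the third IM3h *RiboTag* library, 96 were called above 0.

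Most of the response was not distinguishable between the fractions. In the genes tested, 1030 were called up in both fractions and 311 down in both, and the interaction was called in 56 and 9 of these. In *ME* alone 1833 were called up and 1667 down, with called interactions in 46 and 15. In *RiboTag* alone 336 were called up and 355 down, with called interactions in 79 and 93. Only 27 genes were called in opposite directions. Of the 327 called genes, 152 had an interaction above 0 (1.06% of genes tested) and 175 below 0 (1.22%). The median interaction over all genes was -0.06 on the log2 scale, with a median SE of 0.587. The median SE of a change was 0.5 in the pulldown against 0.217 in *ME*, so the libraries resolved *RiboTag* changes less finely. The balance between the directions moved with the scaling, from 152 above and 175 below to 188 and 142 with 1 TMM scaling over all libraries and to 123 and 92 with library totals.

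**Figure D1:**
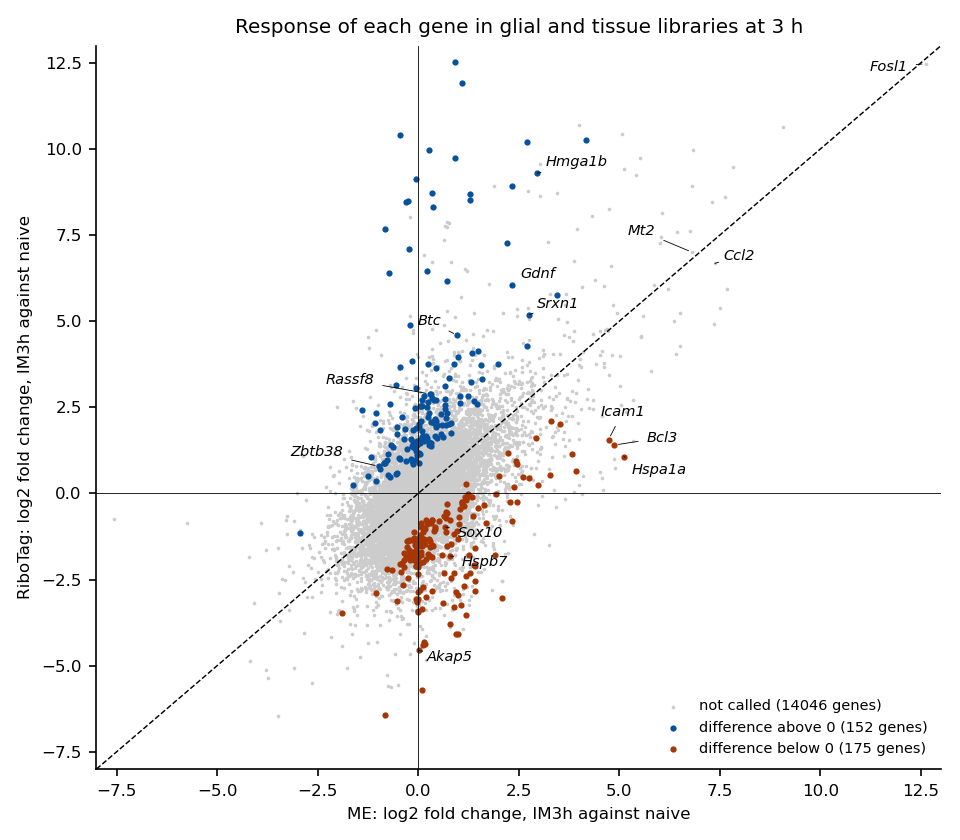
Log2 fold change of each gene from naïve to IM3h in *ME* (x axis) and in *RiboTag* (y axis) libraries, with the line of equal change dashed. Blue points are the 152 genes with a called interaction above 0, red-brown points the 175 below 0, and grey points the genes tested and not called.

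The largest named class were 91 genes whose rise was larger in *RiboTag*, 70 of them protein-coding and 17 annotated as pseudogenes, with median log2 changes of 2.59 in *RiboTag* and 0.46 in *ME*. Of the 91, 41 were not called in *ME*. Of 20 tested enteric neuron markers, 19 had an interaction above 0 and none was called. Their median interaction was 0.54, with median log2 changes of 0.56 in *RiboTag* and -0.06 in *ME*, and the part of neuronal RNA in this class was not tested. *Gdnf* (chr15:7810846-7837575, mm10), which encodes glial cell line-derived neurotrophic factor, the ligand that signals through Ret, was at 5.68, 10 and 18.3 CPM in naïve and at 550, 873, 803 and 769 CPM in IM3h *RiboTag* libraries. In *ME* it was at 11.8, 24.1 and 15.9 CPM and then at 82.6, 78.5 and 94.3 CPM. The groups did not overlap in either fraction, which is part of the rule by which genes of each class were named, and the rise was 65.8-fold in *RiboTag* against 5.02-fold in tissue, an interaction of 3.73 ± 0.47 (SE, adjusted p = 0.000997, edgeR). It was the 1 called among 7 tested genes of the GDNF ligand and receptor list (14.3% against 2.28% of all genes). The list had a median interaction of -0.19 and 4 of its 7 members lay below 0, so this share reflects *Gdnf* alone.

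*Btc* (chr5:91357261-91402994), encoding betacellulin, a ligand of the EGF receptor, was at 3.86, 3.04 and 5.98 CPM in naïve *RiboTag* libraries and at 78.3, 101, 103 and 133 CPM at IM3h. In *ME* it went from 7.84, 4.53 and 5.49 CPM to 12.8, 11.6 and 11.2 CPM. The rise was 24-fold in *RiboTag* and 1.97-fold in *ME* (interaction 3.61 ± 0.41, adjusted p = 0.000383, edgeR). *Btc* was the 1 called among 11 tested EGF family ligands and receptors (9.09% against 2.28% of all genes). The median interaction of that list was 0.19, with 4 members below 0. *Hbegf*, another ligand of this receptor, rose in both fractions, by 6.60 and 4.8 on the log2 scale, and its interaction of 1.77 ± 0.47 missed the threshold (adjusted p = 0.0657, edgeR). *Areg*, which encodes amphiregulin, had no count in any naïve *RiboTag* library and was at least 50.6-fold higher at IM3h, taking 3 counts per library as the floor. It also rose 33.4-fold in *ME*, and its interaction was not called (adjusted p = 0.053, edgeR).

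Inhibitors of MAP kinase signalling formed a second group. Of 16 tested phosphatases and Sprouty-type inhibitors, 3 had a called interaction, all above 0, against 1.06% of all genes tested. The median of the list was 0.36, and 5 members lay below 0. Within fractions 8 were called up in *RiboTag* and 12 in *ME*, against 9.55% and 20.1% of all genes. With scaling to *Actb*, *Hsp90ab1* and *Rplp1*, taken as reference genes, 1 interaction of this list was called. *Spred2*, a Ras pathway inhibitor, was at 17.5, 10.9 and 10.1 CPM in naïve and 158, 151, 118 and 91 CPM in IM3h *RiboTag* libraries, while its *ME* values moved from 12 to 13.3 CPM to 17.7 to 27.5 CPM (interaction 2.57 ± 0.38, adjusted p = 0.00324, edgeR). *Dusp14*, a phosphatase, rose in *RiboTag* from 2.24 to 6.29 CPM to 25 to 39.6 CPM. In *ME* it was lower in every IM3h library (5.29 to 5.71 CPM) than in every naïve one (6.79 to 9.09 CPM) without passing the test, and the interaction was 3.69 ± 0.53 (adjusted p = 0.00275, edgeR). *Dusp5*, which acts on ERK in the nucleus, rose 53.6-fold in *RiboTag* and 11-fold in *ME* (interaction 2.30 ± 0.53, adjusted p = 0.0373).

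Genes of sterol supply formed a further group. Of 20 tested cholesterol synthesis genes, 7 were called up in *RiboTag* and 2 up in *ME*, against 9.55% and 20.1% of all genes tested. Their median interaction was 0.72, and 3 members were called above 0 (1.06% of all genes were) and none below. With reference gene scaling none of these 3 calls remained. *Sqle*, squalene epoxidase, rose 4.96-fold in *RiboTag* and 1.48-fold in *ME* (interaction 1.74 ± 0.35, adjusted p = 0.0202), and *Msmo1*, a sterol demethylation enzyme, rose 3.31-fold and 1.49-fold (interaction 1.15 ± 0.28, adjusted p = 0.0434).

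Among the other named genes of this class, *Ets1*, an ETS transcription factor, was at 9.83 to 22.1 CPM in naïve and 193 to 333 CPM in IM3h *RiboTag* libraries, a 17.6-fold rise against 2.79-fold in *ME* (interaction 2.65 ± 0.39, adjusted p = 0.00304, edgeR). *Srxn1*, sulfiredoxin, which repairs oxidised peroxiredoxins, reached 1633, 1568, 1180 and 653 CPM in *RiboTag* from 29.2 to 37.4 CPM (interaction 2.43 ± 0.38). It was the 1 called among 15 tested Nrf2 targets (6.67% against 2.28% of all genes). Of the 15, 11 had an interaction below 0, and the median was -0.25. *Rassf8* rose 7.39-fold in *RiboTag* and was not called in *ME*, where its libraries moved from 18.4 to 22.1 CPM to 23.8 to 28.6 CPM (interaction 2.59 ± 0.29, adjusted p = 0.000323). *Nes*, which encodes the intermediate filament nestin, rose 19.6-fold in *RiboTag* and 6.49-fold in *ME* (interaction 1.60 ± 0.39, adjusted p = 0.0477). Over 27 alternative settings, *Nes* was called in 14, *Dusp5* in 16 and *Msmo1* in 11, while *Gdnf*, *Btc*, *Ets1* and *Rassf8* were called in all. *Flnc*, a filamin, *Ier5l*, an immediate early gene relative, *Cry1*, a core repressor of the circadian clock, *Utp4*, a nucleolar ribosome assembly factor, *Inhba*, an activin subunit, and *Gbp3*, an interferon-induced GTPase, were also called, with interactions of 1.59, 2.74, 1.57, 2.18, 2.10 and 1.36. *Inhba* and *Gbp3* were each called in 14 of 27 alternative settings.

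Larger fitted interactions came from genes with few or no counts in naïve *RiboTag* libraries. *Zfp593* had no count in any naïve *RiboTag* library and was at least 42.9-fold higher at IM3h, against a 6.51-fold rise in *ME*. *Hmga1b* was at 0, 0 and 0.935 CPM in naïve *RiboTag* libraries and at 164 to 261 CPM at IM3h. It is a near-identical copy of *Hmga1*, so the split of reads between them is uncertain. The same holds for the pseudogenes of the class. Over all 588 pseudogenes tested, 28 had a called interaction above 0 and 2 below, with a median of 0.59, a called share of 5.1% against 2.28% of all genes. The part of read assignment in these values was not tested.

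**Figure D2:**
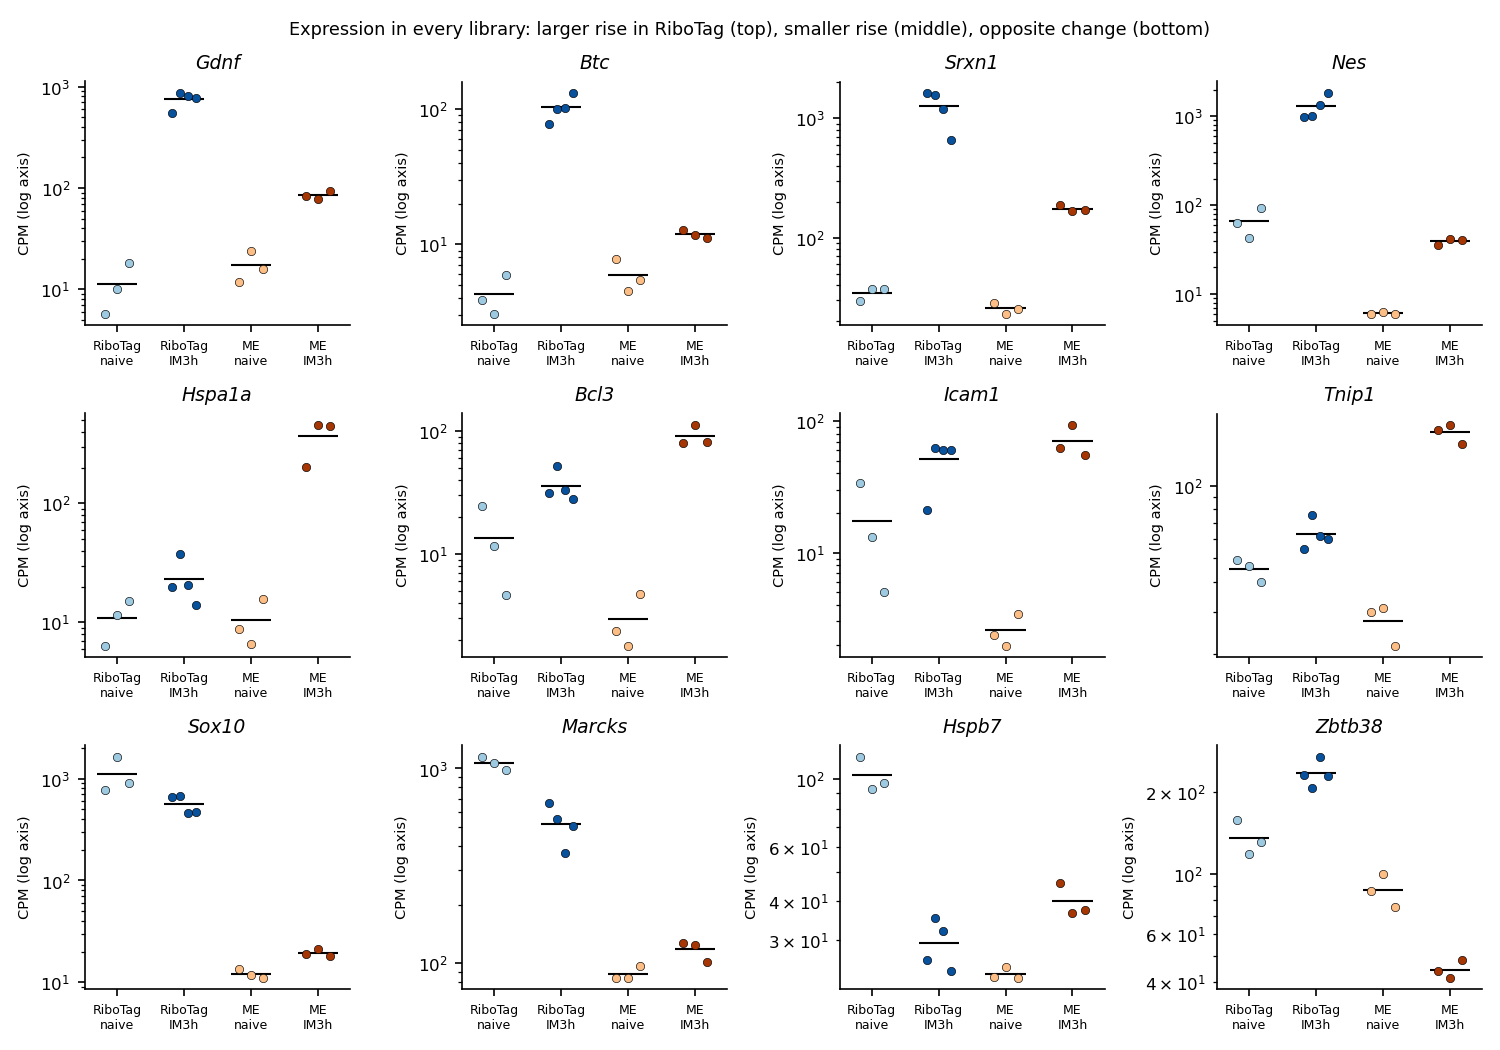
CPM of 12 genes in each of the 13 libraries on log axes, 1 point per library with group means as lines. *RiboTag* values jump at IM3h in the top row (*Gdnf* from 18.3 at most to 550 at least), tissue values jump in the middle row (*Hspa1a* from 15.8 at most to 204 at least), and the 2 fractions move in opposite directions in the bottom row.

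The reverse pattern, a rise smaller in *RiboTag*, was found in 18 genes, all protein-coding, with median log2 changes of 0.89 in *RiboTag* and 2.95 in *ME*. In 12 of the 18 the *RiboTag* change itself was not called. NF-κB is a transcription factor family held in the cytoplasm by inhibitors, and its target genes include its own subunits and inhibitors. Of 15 tested members of this list, 14 were called up in *ME* and 7 in *RiboTag*, against 20.1% and 9.55% of all genes tested. The median interaction was -0.98, and 4 members were called, all below 0, against 1.22% of all genes. With reference gene scaling no member was called, and the median was -1.03. These 4 were *Bcl3*, *Tnip1*, *Rela* and *Nfkb2*.

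*Bcl3* (chr7:19808462-19822770), a nuclear IκB protein that binds NF-κB subunits, was at 24.6, 11.6 and 4.67 CPM in naïve and at 31.3, 51.8, 32.9 and 27.9 CPM in IM3h *RiboTag* libraries, without passing the test. In *ME* it rose from 2.38, 1.78 and 4.77 CPM to 80, 113 and 81.9 CPM. The interaction was -3.50 ± 0.65 (adjusted p = 0.0142, edgeR). *Tnip1*, which encodes a partner of the ubiquitin-editing inhibitor A20, was at 40 to 49.1 and 54.5 to 75.4 CPM in *RiboTag* and rose in *ME* from 21.6 to 31.2 CPM to 150 to 179 CPM (interaction -2.11 ± 0.27, adjusted p = 0.00114). *Rela*, the p65 subunit, rose in both, 1.92-fold in *RiboTag* and 5.39-fold in *ME* (interaction -1.49 ± 0.29, adjusted p = 0.0175). *Nfkb2*, the p100 subunit, rose 2.02-fold in *ME*, while *RiboTag* libraries overlapped at 72.9 to 174 CPM in naïve and 39.7 to 92.4 CPM at IM3h (interaction -1.89 ± 0.42, adjusted p = 0.0304).

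The other 11 list members were not called. *Nfkbia*, the inhibitor IκBα, rose by 4.03 ± 0.38 in *RiboTag* and 3.36 ± 0.21 in *ME* on the log2 scale (interaction 0.68 ± 0.42). The promoters of these genes were searched, after their values were seen, because members of the list rose together in *ME*. A common form of the NF-κB site, with GGG at its start, TT in the middle, CC at its end and any base at the other 3 of its 10 positions, was sought on both strands in the 300 bases around each start (RefSeq, GRCm38.p6). It was present in 7 of the 12 list members with a promoter sequence (58.3%) and in 6.41% of the 10126 genes tested that had one. The list was made of subunits and inhibitors, which are named above as NF-κB targets. The excess follows in part from that choice and is not evidence about the response. The matches of 3 called members and of *Nfkbia* are shown with 10 bases on each side, the motif in capitals, read 5′ to 3′ along the gene. In *Nfkb2*, which held several matches of which 1 is shown, and in *Tnip1* the motif reads on both strands, and the matches of *Bcl3* and *Nfkbia* lie on the opposite strand. They lie at chr19:46304688-46304717 (plus strand), chr11:54962978-54963007 (minus strand), chr7:19822734-19822763 (minus strand) and chr12:55492657-55492686 (minus strand).
Nfkb2: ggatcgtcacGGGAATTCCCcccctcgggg
Tnip1: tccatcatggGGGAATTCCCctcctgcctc
Bcl3: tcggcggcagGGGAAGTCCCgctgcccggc
Nfkbia: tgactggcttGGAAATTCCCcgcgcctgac
The motif was thus held by members with and without a called interaction. Of the 14 genes of the class with a promoter sequence, 3 had it, *Bcl3* and *Tnip1* among them.

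*Icam1*, the adhesion molecule ICAM-1 used by leukocytes, rose in *ME* from 1.94 to 3.42 CPM to 55.5 to 94.1 CPM, a 26.6-fold change. In *RiboTag* it was at 33.9, 13 and 5.05 CPM in naïve and at 21.2, 62.2, 60.7 and 60.4 CPM at IM3h, with overlap (interaction -3.19 ± 0.75, adjusted p = 0.0406, edgeR), and the call held in 16 of 27 alternative settings. *Serpina3n*, an acute-phase protease inhibitor and a marker of reactive astrocytes, rose 15.2-fold in *ME* and overlapped in *RiboTag* at 8.22 to 29.7 and 11.5 to 42.2 CPM (interaction -3.27 ± 0.64, adjusted p = 0.0174). *Hspa1a* (chr17:34969190-34972156), an inducible HSP70 gene, rose 34.5-fold in *ME* from 6.63 to 15.8 CPM to 204 to 460 CPM. *RiboTag* libraries held 6.29 to 15.1 and 14 to 37.5 CPM (interaction -4.06 ± 0.59, adjusted p = 0.00291). Its near-identical neighbour *Hspa1b*, with which it may share reads, had an interaction of -4.19 (adjusted p = 0.061). Over the 21 heat shock genes tested, 18 were called up in *ME* and 7 in *RiboTag*, against 20.1% and 9.55% of all genes, and *Hspb8*, a small heat shock protein, was the other member called (-1.5 ± 0.23). With reference gene scaling no interaction of the heat shock list was called. *Pde4b*, a cAMP phosphodiesterase, rose in both fractions, 4.33-fold in *RiboTag* and 9.92-fold in *ME* (interaction -1.19 ± 0.26, adjusted p = 0.026). *Cdr2l* and *Gla*, the lysosomal enzyme alpha-galactosidase A, had interactions of -2.73 and -2.71, called in 17 and 14 of 27 alternative settings.

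No chemokine had a called interaction. Of 17 tested, 11 were called up in *ME* and 3 in *RiboTag*, against 20.1% and 9.55% of all genes, with a median interaction of -0.91. The 15 genes of the IL-1, TNF and acute-phase list had a median of -0.75, and *Icam1* was the 1 member called. The summed neutrophil and monocyte markers, which these cells bring into inflamed muscle, were 22 to 25.1 CPM in naïve and 46.6 to 88.2 CPM in IM3h *ME* libraries, without overlap, and 33.1 to 34.9 and 19.4 to 46.3 CPM in *RiboTag*. The difference between fractions was -1.64 (exact permutation test, two-sided, p = 0.0357, adjusted p = 0.366 over 11 marker lists). In bulk tissue, more cells of a type and more RNA per cell cannot be told apart, and the part of these cells in the *ME* changes was not tested.

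A fall larger in *RiboTag* was seen in 51 genes, with median log2 changes of -1.9 in *RiboTag* and -0.17 in *ME*, and 43 of them were not called in *ME*. Over all genes tested, 4.78% were called down in *RiboTag* and 13.8% in *ME*. A further 50 genes were called down in *RiboTag* with an *ME* estimate of the other sign that was not called. *Dact3*, a Wnt pathway antagonist, was at 251, 137 and 182 CPM in naïve and 28.6, 41.7, 29.8 and 19.5 CPM in IM3h *RiboTag* libraries, and fell slightly in *ME* from 85 to 104 CPM to 66.6 to 82.3 CPM (interaction -2.29 ± 0.36, adjusted p = 0.00439, edgeR). *Vegfb*, a vascular growth factor, fell 5.44-fold in *RiboTag* and overlapped in *ME* at 58.2 to 74 and 42.8 to 67.6 CPM (interaction -2.19 ± 0.44, adjusted p = 0.0193). *Tgfb3*, a TGF-β ligand, fell from 34.7 to 58.3 CPM to 9.89 to 13 CPM in *RiboTag* (interaction -1.98 ± 0.36, adjusted p = 0.0129).

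Of 22 tested glycolysis and hypoxia genes, 2 had a called interaction below 0 and none above, with a median of -0.23, against 1.22% of all genes called below 0 and 1.06% above. With reference gene scaling no interaction of the list was called. *Ndufs8*, a nuclear gene for complex I of the respiratory chain, and *Ndufs6b*, annotated as a processed pseudogene that may share reads with its parent gene, fell 4.35-fold and 10.9-fold in *RiboTag*, with *ME* log2 changes of -0.06 and 0.00 that were not called (interactions -2.06 ± 0.35 and -3.48 ± 0.75). The 2 list members called were *Aldoa*, a glycolytic aldolase, and *Egln3*, an oxygen-sensing prolyl hydroxylase, with interactions of -1.45 and -1.5. *Egln3* was called in 15 of 27 alternative settings, and *Ndufs6b* in 15 of the 25 that gave it a value. Reads of the histone gene *H4c8* (interaction -3.07) can be shared with near-identical copies.

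RNAs encoded in the mitochondrial genome also had interactions below 0. They comprise messages, translated inside mitochondria on ribosomes without RPL22, tRNAs and rRNAs. Of 33 tested, 21 had a called interaction below 0 (63.6%, against 1.22% of all genes) and none above, with a median of -2.84. The called ones were 14 of 18 tRNAs (median -3.69) and 7 of 13 messages (median -1.84), and neither of the 2 rRNAs was called (median 0.87). With library totals 14 of the 33 were called below 0, and with reference gene scaling 6. Within *RiboTag*, 21 were called down and 1 up (4.78% and 9.55% of all genes were). Within *ME*, 16 were called up and 1 down (20.1% and 13.8% of all genes were). The *ME* median was 0.89 for tRNAs and 0.04 for messages. *mt-Nd1* had CPM means of 4484 in naïve and 1229 in IM3h *RiboTag* libraries, and 8304 and 8288 in *ME* (interaction -1.86 ± 0.39). *mt-Co3* had means of 11347 and 3844 CPM in *RiboTag*, and 12302 and 15032 CPM in *ME* (interaction -1.85 ± 0.36). Both were chosen after their values were seen. The mitochondrial share of counts was 5.04% to 7.86% in naïve and 1.78% to 4.87% in IM3h *RiboTag* libraries and 13.7% to 18% in *ME*.

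Smooth muscle markers fell in both fractions. Of their interactions, 10 lay below 0 and 4 above, and 1 was called (7.14% against 2.28% of all genes). All 14 tested had estimates below 0 in both fractions under each of 4 scalings, 6 called in *RiboTag* and 3 in *ME*, with median log2 changes of -0.85 and -0.26. Over all genes, 4.78% and 13.8% were called down. *Myl9*, the regulatory myosin light chain of smooth muscle, fell from 2488 to 3247 CPM to 548 to 1198 CPM in *RiboTag* and overlapped in *ME* at 2677 to 2870 and 2516 to 3113 CPM (interaction -1.68 ± 0.33, adjusted p = 0.0174). The summed markers were lower at IM3h without overlap in both fractions, with log2 changes of -1.07 in *RiboTag* and -0.23 in *ME*. The difference of -0.84 did not pass the test (exact permutation test, two-sided, p = 0.127, adjusted p = 0.366). The null of this test is no response in either fraction, so it cannot decide whether the 2 falls differed. The adipocyte marker sum was also lower in IM3h *RiboTag* libraries, at 76.3 to 158 against 203 to 367 CPM. So were the fibroblast sum (890 to 1303 against 1991 to 2388 CPM) and the mesothelial sum (63.6 to 223 against 330 to 731 CPM). In *ME* the adipocyte, fibroblast and mesothelial sums had log2 changes of -0.31, -0.82 and -1.61. The share of counts on the ribosomal RNA gene CT010467.1 was 0.27% to 0.742% in naïve and 1.78% to 3.08% in IM3h *RiboTag* libraries, without overlap, and 1.1% to 1.61% in *ME*. The part of these shifts in pulldown content in the falls listed above was not tested.

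**Figure D3:**
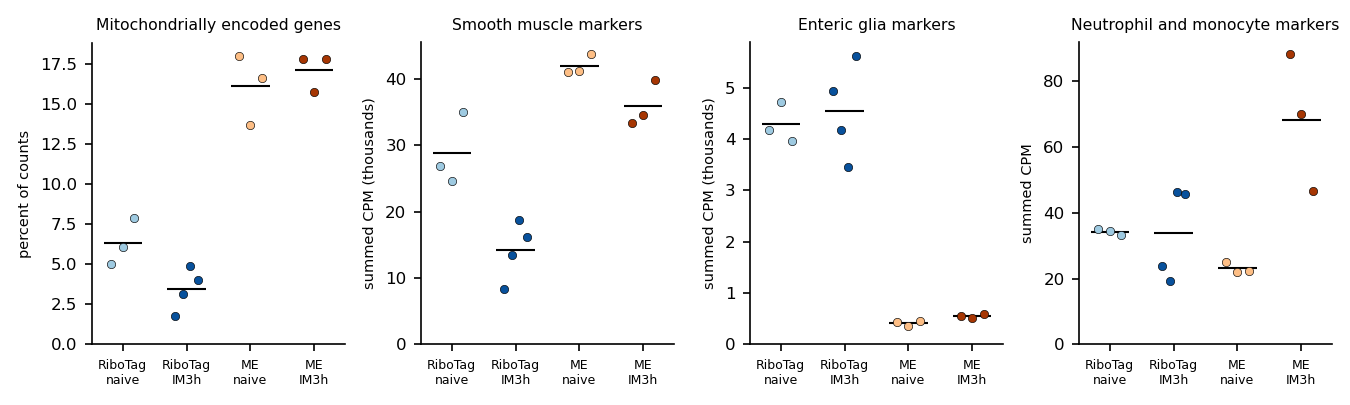
Share of mitochondrially encoded counts and summed CPM of 3 marker lists in each library, with group means as lines. Mitochondrial and smooth muscle values were lower in IM3h than in naïve *RiboTag* libraries without overlap, while glia markers overlapped in *RiboTag*. The summed glia markers and the summed neutrophil and monocyte markers were both higher in IM3h than in naïve *ME* libraries without overlap.

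A further 4 genes had large falls in *RiboTag*. *Akap5*, *Elp6*, *Lrrc17* and *Tatdn1* had interactions of -4.57, -4.53, -4.53 and -4.45, and their *ME* changes were 0.01, 0.17, 0.12 and 0.14. *Tatdn1* was at 2290, 1376 and 885 CPM in naïve and 64.4, 64.4, 122 and 56.8 CPM in IM3h *RiboTag* libraries, and at 239 to 331 CPM in *ME*. *Akap5*, which encodes an anchoring protein for cAMP-dependent protein kinase, was at 1346, 807 and 647 CPM and then at 28.1, 35.5, 44 and 51.1 CPM in *RiboTag*. These genes lie on different chromosomes (12, 9, 5 and 15 in that order) but their ratios stayed within narrow limits compared with the size of the fall. *Elp6* was 0.299 to 0.473 of *Tatdn1* in naïve and 0.296 to 0.473 in IM3h *RiboTag* libraries, and 0.307 to 0.378 in *ME*. *Akap5* was 0.586 to 0.732, 0.361 to 0.9 and 0.541 to 0.653 of *Tatdn1* in the same order, the last range spanning both *ME* groups. *Lrrc17* was 0.305 to 0.741 of *Tatdn1* over all libraries. Within IM3h *RiboTag* libraries the order differed, the fourth being highest for *Akap5* and lowest for *Tatdn1*. A shared source of reads was not tested, and the values are given as counted.

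The only gene whose fall was smaller in *RiboTag* was *Fmo2*, a flavin monooxygenase. It fell from 44.8 to 52.8 CPM to 15.6 to 28.3 CPM in *RiboTag* and from 44.4 to 76 CPM to 7.05 to 9.57 CPM in *ME* (interaction 1.78 ± 0.37, adjusted p = 0.023, edgeR).

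Opposite changes were called in 27 genes, 21 down and 6 up in *RiboTag*. Of the 21, 8 were mitochondrially encoded and 12 were typed as protein-coding, the latter including predicted genes. *Sox10* (chr15:79154908-79165240), a transcription factor of enteric glia whose regulatory sequence drives the Cre in the *RiboTag* mice, was at 776, 1642 and 904 CPM in naïve and at 652, 674, 464 and 465 CPM in IM3h *RiboTag* libraries. In *ME* it was at 13.7, 12 and 11 CPM and then at 19, 21.5 and 18.1 CPM. It fell 1.96-fold in the pulldown and rose 1.6-fold in *ME* (interaction -1.65 ± 0.36, adjusted p = 0.0284, edgeR), with groups that did not overlap, as the naming rule required. The interaction was called in 18 of 27 alternative settings, with values between -1.84 and -1.23. The opposite call was lost with library totals, where the *ME* change of *Sox10* was 0.42 (adjusted p = 0.127, edgeR), and with reference genes, where it was 0.27 (adjusted p = 0.232) and the *RiboTag* change had an adjusted p of 0.131. The summed glia markers were also higher in IM3h *ME* libraries, at 520 to 590 against 363 to 457 CPM without overlap. This held for the sum and not for most members, since 4 of the 19 tested were called up and 5 down in *ME* (20.1% and 13.8% of all genes were), with a median of -0.18. Their part in the *ME* rise of *Sox10* was not tested. *Sox10* was the only one of 19 tested glia markers with a called interaction (5.26% against 2.28% of all genes), and the list had a median of 0.18. Messages of the Cre transgene were not measured separately.

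*Hspb7*, a small heat shock protein of muscle, was at 118, 92.9 and 97.2 CPM in naïve and at 25.8, 35.3, 32.1 and 23.8 CPM in IM3h *RiboTag* libraries, and rose in *ME* from 22.5 to 24.6 CPM to 36.6 to 45.9 CPM (interaction -2.59 ± 0.29, adjusted p = 0.000323, edgeR). The smooth muscle marker sum was lower in the same IM3h *RiboTag* libraries (log2 change -1.07), and its part in the falls of this class was not tested. *Marcks*, a substrate of protein kinase C at the membrane, fell from 979 to 1151 CPM to 368 to 664 CPM in *RiboTag* and rose from 83.5 to 96.9 CPM to 101 to 127 CPM in *ME* (interaction -1.45 ± 0.28). *Arpc1b*, a subunit of the actin-nucleating Arp2/3 complex, and *Tmsb10*, an actin-binding thymosin, also fell in *RiboTag* and rose in *ME*, with interactions of -2.32 ± 0.46 and -1.48 ± 0.34. These 2 were called in 21 and 15 of 27 alternative settings.

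In the other direction, *Zbtb38*, a methyl-DNA-binding zinc finger protein, rose in *RiboTag* from 118 to 158 CPM to 206 to 269 CPM and fell in *ME* from 75.5 to 100 CPM to 41.4 to 48.5 CPM (interaction 1.76 ± 0.25, adjusted p = 0.00274, edgeR). *Spata13*, a guanine nucleotide exchange factor, rose from 37.7 to 53.8 CPM to 84.8 to 259 CPM in *RiboTag* and fell from 33.5 to 47.3 CPM to 26.2 to 31.6 CPM in *ME* (interaction 2.25 ± 0.45, adjusted p = 0.0194). *Sema6d*, a semaphorin, *Pcm1*, a centrosome satellite protein, and *Endod1* had interactions of 1.95, 1.48 and 1.5, called in 14, 26 and 17 of 27 alternative settings. These small opposite changes depended on the scaling. With library totals all 27 kept opposite signs and 12 were still called in both fractions, and with scaling to *Actb*, *Hsp90ab1* and *Rplp1* 25 kept opposite signs and 3 were called in both. Within a fraction these scalings moved the median change of all genes to -0.23 and -0.43 in *RiboTag* and to -0.26 and -0.41 in *ME*. *Tmsb10* had an *ME* change of 0.13 with library totals and of -0.02 with the reference genes.

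**Figure D4:**
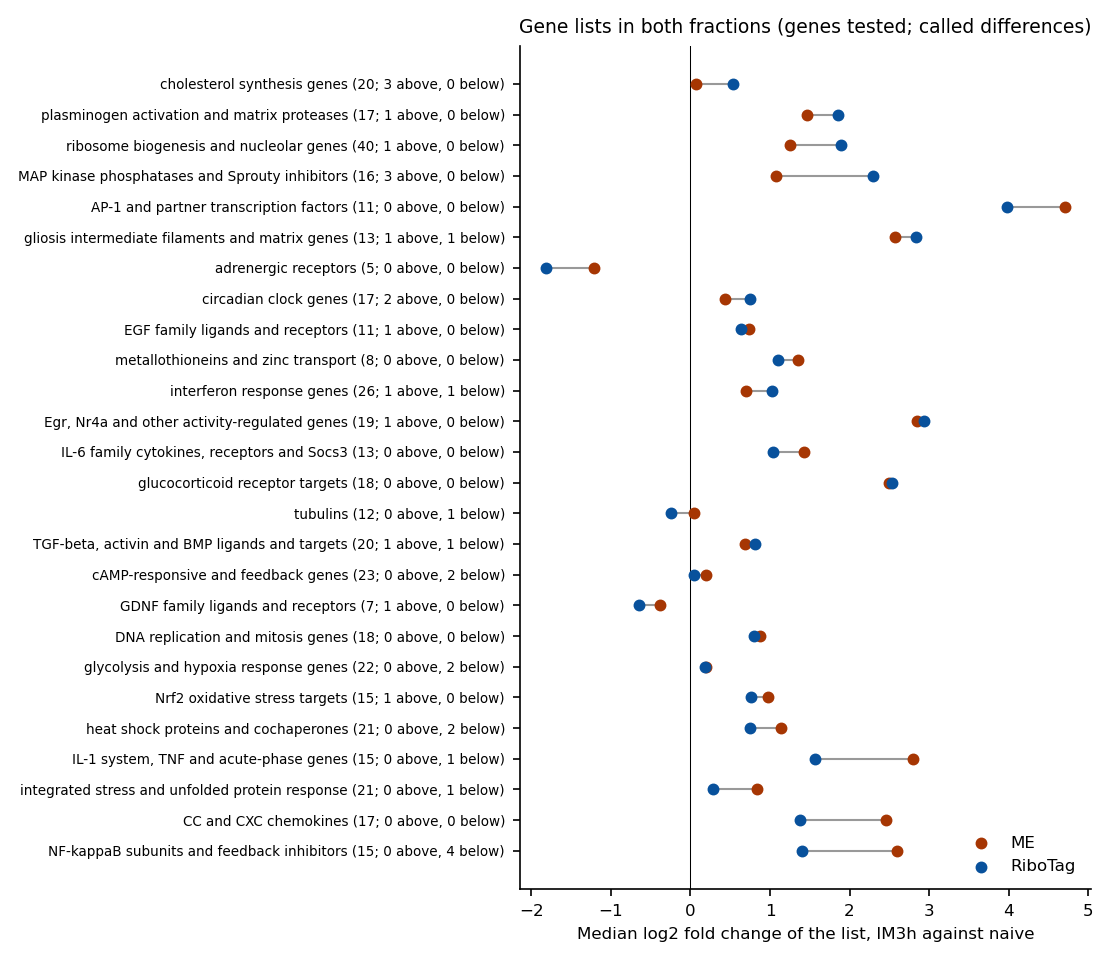
Median log2 change from naïve to IM3h of 26 gene lists in *RiboTag* (blue) and *ME* (red-brown) libraries, ordered by median interaction, with the number of genes tested and of called interactions above and below 0. NF-κB genes had medians of 1.4 and 2.6, and MAP kinase inhibitors 2.29 and 1.08.

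Much of the immediate early response rose in both fractions by amounts that could not be separated. Over all genes tested, 9.55% were called up in *RiboTag*, 20.1% in *ME* and 1030 of 14373 in both. Of 11 tested AP-1 and partner factors, 9 were called up in both, with medians of 3.98 in *RiboTag* and 4.71 in *ME* and no called interaction. *Fos* rose by 5.24 ± 0.47 and 4.93 ± 0.41 on the log2 scale (interaction 0.28 ± 0.65). Of 18 glucocorticoid receptor targets, 13 were called up in each fraction, with medians of 2.53 and 2.5. Of 40 tested ribosome biogenesis genes, 33 were called up in both fractions, with medians of 1.89 and 1.25, and *Utp4* was the only called interaction. Of the 40 interactions, 32 lay above 0, with a median of 0.43 against -0.06 over all genes. Of 5 adrenergic receptors tested, none was called in *RiboTag* and 3 were called down in *ME* (13.8% of all genes were). None had a called interaction. Their median log2 changes were -1.82 in *RiboTag* and -1.21 in *ME*, so the missing *RiboTag* calls do not mean a smaller fall there.

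The study singled out 22 genes at IM3h. They were chosen with these *RiboTag* and *ME* libraries in view, so their rise in either fraction is not independent evidence. In *ME*, all 22 were called up (20.1% of all genes tested were). In *RiboTag*, 20 of the 22 were called up (9.55% of all genes tested were). The interaction was called in 2 of them, *Gdnf* and *Nes* (9.09% against 2.28% of all genes). *Mt2*, a metallothionein, rose 128-fold in *RiboTag* and 113-fold in *ME* (interaction 0.16 ± 0.77), and *Gfap*, the intermediate filament of astrocytes and glia, rose 4.79-fold and 3.71-fold (interaction 0.38 ± 0.30). The cytokine signal inhibitor *Socs3* and the chemokine *Cxcl1* lay lowest, at -1.93 ± 0.57 and -2.37 ± 0.87, and *Egr1*, an immediate early factor, at 1.81 ± 0.48, none called.

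**Figure D5:**
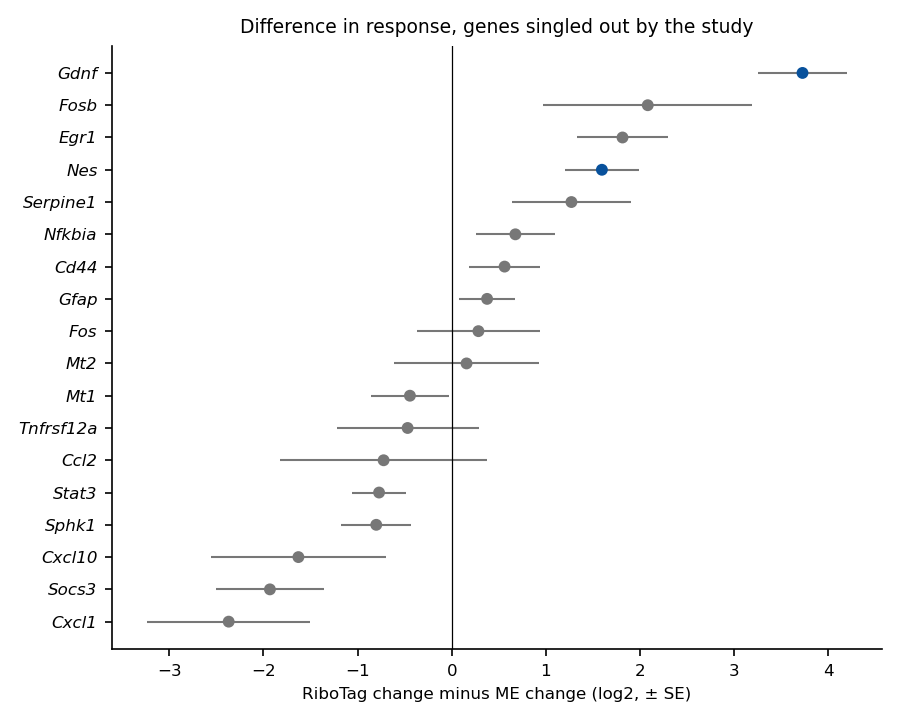
Interaction (*RiboTag* change minus *ME* change, log2, ± SE) of 18 of the 22 genes the study singled out at IM3h, 4 without a count in the naïve libraries of a fraction being left out. *Gdnf* and *Nes* (blue) were called, and the error bars of *Fos*, *Mt2*, *Tnfrsf12a* and *Ccl2* cross 0.

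The study had also compiled a gene list for acute enteric gliosis from the literature and checked those genes in its *RiboTag* data, so their calls are not independent evidence either. Of its 113 tested members, 88 were called up and 10 down in *ME*, and 68 up and 14 down in *RiboTag*. Over all genes tested these shares were 20.1% and 13.8% in *ME* and 9.55% and 4.78% in *RiboTag*. The interaction was called above 0 in 6 members and below 0 in 6 (10.6% against 2.28% of all genes), with a median of -0.29. With reference gene scaling 1 was called above 0 and none below. The part of the list added by a fold criterion in *RiboTag* had 85 tested members, of which 70 were called up in *ME* and 66 in both fractions. Its called interactions (11 above and 7 below 0) and its median of 1.21 follow in part from that choice and are not independent evidence.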

How the data were processed

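QuantSeq 3′ libraries were trimmed, aligned with STAR to mm10 and quantified in Partek Flow by the authors. The deposited values are estimated counts per transcript (*RiboTag*) or per gene (*ME*), not scaled for depth, with 1 line per library. Tables of the authors' own comparisons (p-values and fold changes) were not used, nor were later time points. The labels list 4 naïve *RiboTag* samples and the table holds 3. Libraries were grouped by the table's own group column and numbered in name order.

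Counts of all transcripts sharing a symbol were added up, rounded to whole numbers and joined to the *ME* table. Genes had to pass filterByExpr in each fraction, and TMM factors were set within each fraction. The interaction was tested over all 13 libraries, and each response within its fraction, with the edgeR 4.0.16 quasi-likelihood test in R 4.3.3, with Benjamini-Hochberg adjustment at 0.05. The interaction fit used 1 dispersion (spread between replicate libraries) per gene for both fractions. The median dispersion was 0.271 in *RiboTag* and 0.0369 in *ME* fitted alone, and 0.133 jointly. The SE of an interaction can therefore understate the spread of the pulldown. CPM used the same library sizes. Marker sums were tested by exact permutation of 700 arrangements, two-sided, on log2 CPM. For sums that changed in both fractions this test cannot decide whether the changes differed. The same test of single genes is not used, since genes named as opposite were selected for separated libraries and its null is no response in either fraction. Scripts were tested on simulated data. Gene types and positions came from GENCODE (GRCm38). Alternatives covered scaling, filters, DESeq2 1.42.0, limma 3.58.1 and left-out libraries.

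Named genes were the 6 with the largest interaction in each class whose libraries did not overlap in called fractions, with a mean of at least 10 CPM in a group of each fraction and no predicted symbol. Genes the study named and up to 4 members of each list with the smallest p were added. Some genes the rule names are not reported here. Members and lists were chosen with earlier results of these data known.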

Additional observations from a re-analysis of the deposited data

Results flagged for a closer look

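The response differed between the fractions, by the interaction test itself (edgeR, adjusted p under 0.05), in 56 of the 68 genes named above, which were chosen in part for this difference. Values are the log2 interaction. That of *Zfp593* is a fitted value against naïve *RiboTag* libraries at 0 and gives no size of the difference. The rise was larger in *RiboTag* for *Zfp593* (7.81), *Hmga1b* (6.32), *Gdnf* (3.73), *Btc* (3.61), *Ier5l* (2.74), *Ets1* (2.65), *Rassf8* (2.59), *Spred2* (2.57), *Srxn1* (2.43), *Dusp5* (2.30), *Utp4* (2.18), *Inhba* (2.10), *Sqle* (1.74), *Nes* (1.60), *Flnc* (1.59), *Cry1* (1.57), *Gbp3* (1.36) and *Msmo1* (1.15). It was smaller in *RiboTag* for *Hspa1a* (-4.06), *Bcl3* (-3.50), *Serpina3n* (-3.27), *Icam1* (-3.19), *Cdr2l* (-2.73), *Gla* (-2.71), *Tnip1* (-2.11), *Rela* (-1.49) and *Pde4b* (-1.19). The fall was larger in *RiboTag* for *Ndufs6b* (-3.48), *H4c8* (-3.07), *Dact3* (-2.29), *Vegfb* (-2.19), *Ndufs8* (-2.06), *Tgfb3* (-1.98), *Myl9* (-1.68) and *Egln3* (-1.5). A smaller fall in *RiboTag* was seen for *Fmo2* (1.78). Opposite changes, down in *RiboTag*, were called for *Hspb7* (-2.59), *Arpc1b* (-2.32), *Sox10* (-1.65), *Tmsb10* (-1.48) and *Marcks* (-1.45). Opposite changes, up in *RiboTag*, were called for *Spata13* (2.25), *Sema6d* (1.95), *Zbtb38* (1.76), *Endod1* (1.5) and *Pcm1* (1.48). A called rise in *ME* with a *RiboTag* estimate below 0 was seen for *Nfkb2* (-1.89) and *Hspb8* (-1.5). A called *RiboTag* fall with an *ME* estimate above 0 was seen for *Akap5* (-4.57), *Elp6* (-4.53), *Lrrc17* (-4.53), *Tatdn1* (-4.45) and *Aldoa* (-1.45). A called *RiboTag* rise with an *ME* estimate below 0 was seen for *Dusp14* (3.69). The mitochondrially encoded genes were *mt-Nd1* (-1.86) and *mt-Co3* (-1.85).

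In 5 of the 68 genes, 1 of the 4 IM3h *RiboTag* libraries stood far from the other 3 (Dixon's ratio above its 95% critical value). Chance gives this in about 1 in 20 groups. The lowest library was at 21.2 CPM for *Icam1* and at 8.36 CPM for *Zfp593*. The highest was at 124 CPM for *Sqle*, 122 CPM for *Tatdn1* and 2.45 CPM for *H4c8*. Groups of 3 libraries were not examined.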

How the results depend on the processing

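The number of genes with a called interaction was 152 above and 175 below 0. It moved by over 1.5 times under some alternatives. Scaling to library totals gave 92 below 0, scaling to *Actb*, *Hsp90ab1* and *Rplp1* gave 23 above and 19 below, DESeq2 gave 406 and 389, limma voom gave 93 above, and an unadjusted p under 0.05 with a 2-fold difference gave 730 and 868. Leaving out 1 library gave 42 to 312 above and 46 to 370 below. The extremes were the fits without the fourth IM3h *RiboTag* library and those without an *ME* library. In *RiboTag*, 1422 genes were called higher and 712 lower, against 242 and 306 with reference gene scaling, 1168 lower with DESeq2, and 849 to 1735 higher and 250 to 1114 lower without 1 library. In *ME*, 2962 were called higher and 2058 lower, against 1742 and 3391 with library totals, 1578 and 5364 with reference gene scaling, and 2180 to 2766 higher and 1545 to 1744 lower without 1 library. The cause was not tested.

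Of the 68 genes named, 56 were called, and none of these reversed under any of the alternatives that gave it a value. In 289 of 1503 such values the call was lost. Scaling to the reference genes ended 43 of the calls, and leaving out 1 *ME* library ended 22 to 29. Genes without a call reversed when 1 library was left out: *Ccl2* ranged from -2.17 to 0.77, *Fos* from -0.19 to 0.72 and *Mt2* from -0.41 to 0.84. 2 alternatives, protein-coding genes only and scaling without mitochondrial genes, were chosen after seeing the data. No paired analysis was possible because the lines of the count tables carry no replicate numbers.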
